A study of Mus musculus with 6 samples.

Results

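The genes described here are the Janus kinases Jak1, Jak2 and Jak3, the transcription factors Stat5a and Stat5b, the feedback inhibitors Cish, Socs1, Socs2 and Socs3, and the kinase Pim1. They were listed by name, and each was read from the brightest, by its mean over the arrays, of the probe sets that name it alone. That gave 9 of the 10 genes, out of 19937 genes measured that way. Jak3 shares its only listed probe set with Insl3 and was not analysed here.

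Transcript levels came from 6 Affymetrix arrays. They hold mouse thymocytes of the double-negative (DN) stage, T-cell precursors without surface CD4 or CD8, taken from C57Bl/6 mice of 4 to 6 weeks. In the first group, 3 arrays hold DN cells of Rag2-/- mice, which cannot assemble antigen receptor genes and whose thymocytes stop at that stage; the labels call them control. In the second, 3 arrays hold DN cells of wild-type mice that received the retroviral vector pMSCV-GFP-TLX3, here called the TLX3 group and labelled tumoral. TLX3 is a homeobox gene switched on in part of human T-cell acute lymphoblastic leukaemia. Transduced cells were kept for 4 to 5 weeks on irradiated OP9-DL1 stroma, which presents a Notch ligand, in medium with 1% supernatant of IL-7-secreting cells and 2.5% supernatant of Flt3L-producing cells. Whether the Rag2-/- cells saw this medium is unclear from the labels, and none of the 6 arrays holds cells given the empty vector. Genotype, virus and culture therefore cannot be told apart. Nothing in the labels says that replicates were separate mice or cultures, so each p-value reflects only how these samples spread, and that spread may be technical.

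Cytokine receptors that lack a kinase of their own carry Janus kinases on their tails. When IL-7 binds its receptor, Jak1 and Jak3 phosphorylate STAT5, which enters the nucleus and switches on target genes, and this signal sustains DN thymocytes. Cish and the Socs genes are among those targets, and their products damp the same receptors, so that their transcripts are widely read as a sign of recent STAT signalling. Pim1, another target, encodes a serine/threonine kinase that favours survival and growth.

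STAT5 is known to bind the motif TTCNNNGAA, which reads the same on both strands. RefSeq promoter windows (GRCm38.p6, 250 bases before to 50 after a gene start) were found for 9 of the 10 listed genes, Jak3 included and Socs2 not, in 12 windows. Those of 2 genes held the motif, as did those of 9.55% of all genes with a window. Both stretches are shown, with the motif in capitals, because no other listed gene with a window had a match. Expression did not enter this choice, and Socs3 did not pass the test used below. The Cish stretch (plus strand, chr9:107296654-107296683) holds the motif at bases 1 to 9 and 12 to 20, counted from the gene start. The Socs3 stretch (minus strand, chr11:117969501-117969530) holds it from base -154 to base -146.
Cish: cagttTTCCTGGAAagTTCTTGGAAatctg
Socs3: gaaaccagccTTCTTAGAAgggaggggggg
Of all 32851 windows, 8.30% held the motif at least once and 0.457% held it 2 or more times. A match describes the letters and does not show binding.

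Of the 9 genes measured, Cish and Jak2 fell in the TLX3 group and none rose. A gene was called, and is said to have risen or fallen, where limma gave a Benjamini-Hochberg adjusted p under 0.05 and the log2 difference (TLX3 minus Rag2-/-, as everywhere below) was at least 1 in size. By that rule 5.07% of all genes were called lower and 1.44% higher. With only probe sets above the median level tested, it called 820 of 10756 genes lower and 147 higher, and again 2 of the 9 lower. At the adjusted p alone, Pim1 was lower as well, making 3 of 9 lower and 0 higher, against 19.4% and 23.0% of all genes. At an unadjusted p under 0.05 limma gave 4 of 9 lower and 0 higher, against 22.9% and 29.6% of all genes. The median log2 difference of the 9 genes was -0.23, against 0.11 over all genes and -0.14 over the 10756 genes above the median level, where all 9 lie. On 6 of 9 genes every TLX3 array lay under every Rag2-/- array, where 26.0% of all genes did, and on 1 of 9 every TLX3 array lay above, where 32.3% did.

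**Figure D1:**
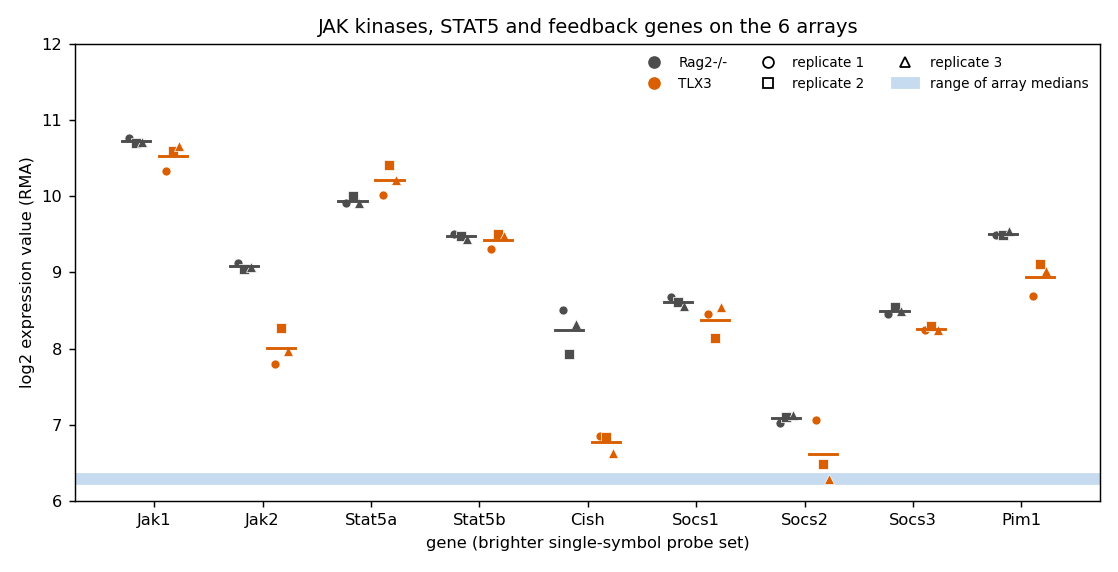
Log2 expression values (vertical axis) of the 9 genes on each array, with Rag2-/- arrays in grey, TLX3 arrays in orange, the replicate shown by the symbol and group means as bars; the blue band spans the array medians. Jak2 and Cish stand apart between the groups, from group means of 9.08 and 8.25 to 8.01 and 6.77, whereas Stat5b overlaps.

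The arrays differed in ways that bear on small differences. Signals were less spread on the TLX3 arrays, with an interquartile range over all probe sets of 2.47 to 2.85 log2 units (lowest in TLX3 replicate 1) against 3.09 to 3.18. Longer genes were lower: among genes above the median level, the median log2 difference was 0.13 in the fifth with the shortest gene length and -0.38 in the fifth with the longest. Of 11 T-lineage DN markers, none lay under the array median on all arrays of either group, but 3 fell and 8 were lower at the adjusted p, the 3 included, with a median log2 difference of -0.62. Their summed linear signal was 34443 to 35948 on the Rag2-/- arrays and 22743 to 28354 on the TLX3 arrays. Markers of other cells moved with the groups: 13 of 15 myeloid and dendritic, 9 of 12 natural killer (NK) and cytotoxic and 6 of 10 thymic epithelial markers fell. Their summed linear signals went from 6925 to 8480 in the Rag2-/- arrays to 839 to 954 in the TLX3 arrays for the myeloid list, from 3480 to 4111 down to 1501 to 2000 for the NK list and from 6204 to 11350 down to 1163 to 1371 for the epithelial list. On all TLX3 arrays 9, 9 and 3 members of these lists, among them H2-Aa, Ncr1 and Psmb11, lay under the array median. Of 10 stromal markers, which the feeder cells could bring, 2 fell and none rose, and their summed signal was 1743 to 2050 in the Rag2-/- arrays and 1107 to 1261 in the TLX3 arrays. None of 7 B-lineage markers was called, and 6 of the 7 were under the array median on all arrays of both groups. Some markers went the other way at the adjusted p, short of the minimum difference. These were Gata3 (0.66) in the T-lineage list, Gzma (0.76) in the NK list and Dlk1 (0.84) in the stromal list. Of the B-lineage markers, 2 were higher and 2 lower at the adjusted p. The part of these shifts in the results below was not tested. In bulk RNA, fewer cells of a type and less RNA per cell cannot be told apart.

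Cish, also known as CIS, is an SH2-domain protein induced by STAT5 that binds cytokine receptors and limits their signal. Its log2 values were 8.50, 7.92 and 8.32 in the Rag2-/- group, and 6.85, 6.84 and 6.62 in the TLX3 group, in replicate order here and below. The Rag2-/- arrays spread more than the TLX3 arrays, and the lowest of them stayed above every TLX3 array. The group means were 8.25 ± 0.30 and 6.77 ± 0.13 (SD, n = 3 each), both above the array medians of 6.22 to 6.35. The log2 difference was -1.48 ± 0.17 (SE), with a 95% interval of -1.85 to -1.10 and a limma adjusted p of 0.000406. Only 305 of the 19937 genes had a lower difference. Cish lies in the fifth of genes with the shortest gene length, whose median difference was 0.13 and of which 5.87% were called lower. It stayed called with any 1 array left out (-1.64 to -1.35) and after rescaling of the arrays, but it was not called by limma treat, which tests whether the difference is larger than 1.

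Jak2 encodes the kinase that serves the receptors for erythropoietin, thrombopoietin, growth hormone and interferon gamma and, with other kinases, that for TSLP. Its log2 values were 9.12, 9.05 and 9.07 on the Rag2-/- arrays and 7.80, 8.27 and 7.97 on the TLX3 arrays. The Rag2-/- arrays lay close together, and all TLX3 arrays lay well under them. The means were 9.08 ± 0.04 and 8.01 ± 0.24 (SD, n = 3 each), which gave a log2 difference of -1.07 ± 0.15 (SE; 95% interval -1.39 to -0.74; limma adjusted p = 0.000867). The difference sat near the minimum for a call. Without TLX3 replicate 1 it was -0.96 and short of that minimum, as it was after renewed quantile normalization (-0.88) and cyclic loess (-0.89), with the adjusted p still at 0.00128, 0.00138 and 0.000828. Jak2 belongs to the fifth of genes with the longest gene length, of which 11.5% were called lower.

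Jak1, the kinase that pairs with Jak3 on receptors of the common gamma chain, did not pass the test. It read 10.77, 10.70 and 10.71 on the Rag2-/- arrays and 10.33, 10.59 and 10.66 on the TLX3 arrays. The TLX3 values were all lower, replicate 1 clearly and replicate 3 only just. This gave a log2 difference of -0.20 ± 0.13 (SE; 95% interval -0.50 to 0.09; limma adjusted p = 0.236). Within each array, Jak2 minus Jak1 was lower by 0.86 log2 units on average in the TLX3 group (an exact two-sided permutation test over arrays gave p = 0.1, the smallest that 3 against 3 allows).

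Stat5a and Stat5b are neighbouring genes for near-identical factors that act largely alike, and neither was called. Whether probes of one also read the other was not tested. Stat5a was at 9.91, 10.00 and 9.91 in the Rag2-/- group and at 10.01, 10.40 and 10.22 in the TLX3 group. All TLX3 values were above all Rag2-/- values, but TLX3 replicate 1 barely cleared Rag2-/- replicate 2. Its log2 difference was 0.27 ± 0.14 (SE; 95% interval -0.04 to 0.58; limma adjusted p = 0.132). Stat5a passed the adjusted p as higher after renewed quantile normalization (0.34, limma adjusted p = 0.0382), after cyclic loess (0.39, 0.0185) and without TLX3 replicate 1 (0.37, 0.0313), each time short of the minimum difference. Stat5b was at 9.51, 9.47 and 9.44 against 9.30, 9.50 and 9.48, and the groups overlapped. Its log2 difference of -0.05 ± 0.12 (SE) had a 95% interval of -0.32 to 0.23 (limma adjusted p = 0.766), and its sign turned to 0.08 after renewed quantile normalization, 0.09 after cyclic loess and 0.01 without TLX3 replicate 1. Within arrays, Stat5a minus Stat5b was higher by 0.32 in the TLX3 group, with an exact two-sided permutation p of 0.1, again the smallest possible.

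**Figure D2:**
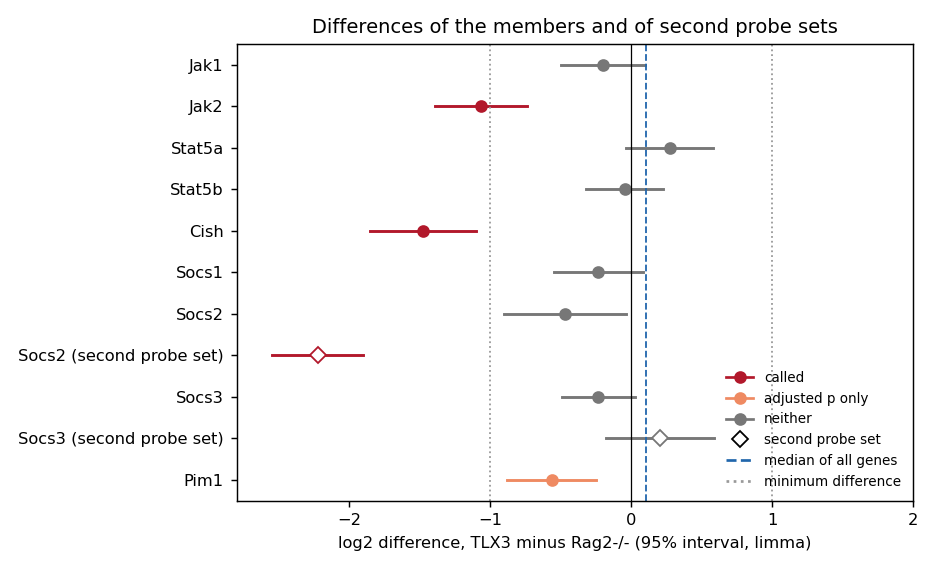
Log2 differences (horizontal axis, TLX3 minus Rag2-/-) with their 95% limma intervals for the 9 genes and for the second probe sets of Socs2 and Socs3, coloured by call. The intervals of Cish, Jak2, Pim1 and both Socs2 probe sets lie wholly under 0, those of Jak1, Stat5a, Stat5b, Socs1 and the brighter Socs3 probe set span 0, and the second Socs2 probe set at -2.23 stands far from the brighter one at -0.47.

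The other feedback inhibitors were not called on the probe sets used. Socs1, which blocks Janus kinases directly and restrains cytokine signals in thymocytes, was at 8.67, 8.61 and 8.55 on the Rag2-/- arrays and at 8.45, 8.14 and 8.55 on the TLX3 arrays. TLX3 replicate 2 was the low value, and replicate 3 all but met the Rag2-/- group. Its log2 difference was -0.23 ± 0.14 (SE; 95% interval -0.55 to 0.09; limma adjusted p = 0.205). Within arrays, Cish minus Socs1 was lower by 1.24 in the TLX3 group (exact two-sided permutation p = 0.1). That test and the other 4 of its kind all gave 0.1, also after Benjamini-Hochberg adjustment over the 5.

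Socs3, best known for restraining receptors that use gp130, read 8.45, 8.54 and 8.49 on the Rag2-/- arrays and 8.24, 8.30 and 8.24 on the TLX3 arrays. The groups did not overlap and each was tight. The log2 difference was nevertheless small, -0.23 ± 0.11 (SE; 95% interval -0.49 to 0.02; limma adjusted p = 0.124). A second, dimmer probe set listed for Socs3 was at 7.21, 6.87 and 7.23 against 7.60, 7.24 and 7.09, with overlapping groups and a log2 difference of 0.21 ± 0.17 (SE; limma adjusted p = 0.345). The probe sets of this platform are numbered along the chromosomes. Socs3 lies on the minus strand of chromosome 11, where the brighter probe set's neighbours in that numbering also lie (9 of 9 with a strand in the RefSeq tables). All 7 such neighbours of the second one lie on the plus strand.

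Socs2, which limits growth hormone signalling, gave different answers on its probe sets. The brighter one, which the gene is read from here, was at 7.02, 7.11 and 7.13 on the Rag2-/- arrays and at 7.06, 6.49 and 6.29 on the TLX3 arrays. TLX3 replicate 1 sat among the Rag2-/- values and the other two under them. The log2 difference was -0.47 ± 0.19 (SE; 95% interval -0.90 to -0.04; unadjusted p = 0.036 and limma adjusted p = 0.074), and without TLX3 replicate 1 it was -0.69 (limma adjusted p = 0.00315).

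The second Socs2 probe set, only slightly dimmer by its mean over all arrays, read 7.84, 7.71 and 7.98 on the Rag2-/- arrays and 5.50, 5.83 and 5.53 on the TLX3 arrays. The groups lay far apart, with all 3 TLX3 values under their array medians, so that the true size of the drop is not known. The deposited values differed by -2.23 ± 0.14 on the log2 scale (SE; limma adjusted p = 4.1e-05). In the numbering, 9 of the 10 nearest named probe sets belong to genes of chromosome 12, between Gm16497 and Ntsr2, whereas Socs2 is on chromosome 10. For the brighter probe set, 9 of 10 neighbours are on chromosome 10. By the numbering, then, only the brighter probe set is placed on the chromosome of Socs2. Which transcripts either probe set reads cannot be told from the annotation used here. Within arrays the second probe set minus the brighter one was lower by 1.76 in the TLX3 group (exact two-sided permutation p = 0.1). The mean of both probe sets was at -1.35 and called (limma adjusted p = 0.000248), whereas the brighter one alone was not called.

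**Figure D3:**
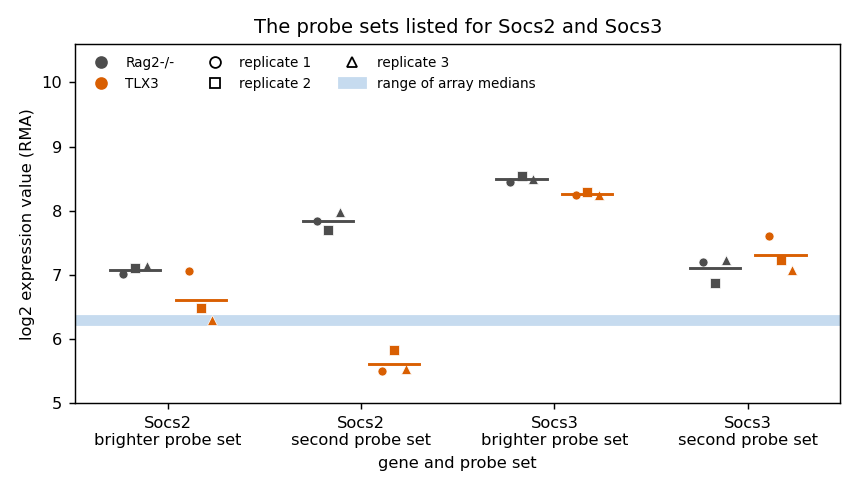
Log2 expression values (vertical axis) of the brighter and the second probe set listed for Socs2 and for Socs3 on each array, with group means as bars and the array medians as a blue band. The second Socs2 probe set goes from 7.84 in the Rag2-/- group to 5.62 in the TLX3 group, while the brighter one goes from 7.08 to 6.61.

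Pim1 was lower at the adjusted p, short of the minimum difference. It was at 9.49, 9.49 and 9.54 on the Rag2-/- arrays and at 8.70, 9.12 and 9.02 on the TLX3 arrays. The Rag2-/- values were nearly equal, and all TLX3 values lay under them, replicate 1 lowest. The log2 difference was -0.56 ± 0.14 (SE; 95% interval -0.88 to -0.25; limma adjusted p = 0.0119), and it kept its side of the adjusted p threshold with any 1 array left out (-0.65 to -0.44).

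Spread within a group was wider in the TLX3 arrays for most of these genes. For the Rag2-/- arrays the median SD of the 9 was 0.04 log2 units, and for the TLX3 arrays 0.20, against 0.11 and 0.21 over all probe sets. Cish, with an SD of 0.30 in the Rag2-/- group, and Socs3 were the exceptions, and Socs2 had the widest spread on the TLX3 side with 0.40. TLX3 replicate 1 was the lowest TLX3 array for Jak1, Jak2, Stat5a, Stat5b and Pim1, but the highest for Cish and Socs2.

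Other measured genes listed around the pathway, called pathway genes below, fell in 4 of 44 cases and rose in none (5.07% and 1.44% over all genes). The lists also take in receptors named for the culture and regulators that act on other pathways too. At the limma adjusted p alone, 15 were lower and 2 higher (19.4% and 23.0% over all genes). At an unadjusted limma p under 0.05 the counts were 21 and 4 (22.9% and 29.6%). Their median log2 difference was -0.27. These lists were drawn up with earlier results of the same arrays known and are descriptions only. Il2rg had no single-symbol probe set.

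Of 5 other kinase and STAT genes none was called, and 3 were lower at the adjusted p (19.4% of all genes). Stat4, the factor downstream of interleukin 12, had the largest difference in size (-0.78 ± 0.19 SE, limma adjusted p = 0.0110). Tyk2, the fourth Janus kinase, was at -0.48 and Stat3 at -0.44, while Stat6, which answers interleukin 4, was at 0.34 without passing the test.

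Of 16 other negative regulators, 1 fell and 4 were lower at the adjusted p, the fallen gene included. That is near the 5.07% and 19.4% of all genes. Cblb, an E3 ubiquitin ligase that restrains T-cell activation, fell by 1.09 ± 0.15 (SE, limma adjusted p = 0.00094) and was short of the minimum difference without TLX3 replicate 1 (-0.96), with array weights (-0.97) and after cyclic loess (-0.99). The phosphatases Ptprc (CD45, -0.74), Ptpn1 (-0.72) and Ptpn2 (-0.35), which remove phosphate from Janus kinases or STATs among other substrates, passed the adjusted p only. Ptpn6, also known as SHP-1, was at -0.01 and Sh2b3, an adaptor that restrains Jak2, at 0.12. The remaining Socs genes, Socs4 to Socs7, ranged from -0.37 to 0.10 and did not pass.

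Among 12 receptor genes, 2 fell and 5 were lower at the adjusted p (5.07% and 19.4% of all genes). Il2ra, the CD25 chain that marks DN2 and DN3 cells and is itself a STAT5 target, fell by 1.19. Il2rb, a chain of the receptors for interleukins 2 and 15 borne by NK cells, went from a mean log2 value of 8.17 to 5.63, the latter under the array medians, beside 9 of 12 NK markers that fell, Il2rb among them. Il7r, the receptor for the cytokine in the medium, was at -0.996 ± 0.18 (SE, limma adjusted p = 0.00295), just short of the minimum difference. It was called with equal array medians (-1.06), without Rag2-/- replicate 1 (-1.01) or 3 (-1.002) and without TLX3 replicate 2 (-1.08) or 3 (-1.12), while it was -0.79 without TLX3 replicate 1. Flt3 was at -0.08 and Kit at 0.36, neither past the test.

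Of 11 other STAT5 targets, 3 were lower and 2 higher at the adjusted p, not far from the 19.4% and 23.0% of all genes. Bcl2, the survival factor sustained by IL-7, fell by 1.03 and was not called without TLX3 replicate 1 (-0.81), without Rag2-/- replicate 1 or 3 (-0.99 each), with array weights (-0.91), after cyclic loess (-0.88) or after renewed quantile normalization (-0.87). The related survival genes Mcl1 (-0.55) and Bcl2l1 (-0.54) passed the adjusted p only. Myc (0.64) and Lif (0.70) were higher at the adjusted p only, Lif with both group means under the array medians. The Pim1 relatives Pim2 (0.40) and Pim3 (0.16) were not past the test, and neither were the cyclins Ccnd2 (-0.39) and Ccnd3 (0.21).

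**Figure D4:**
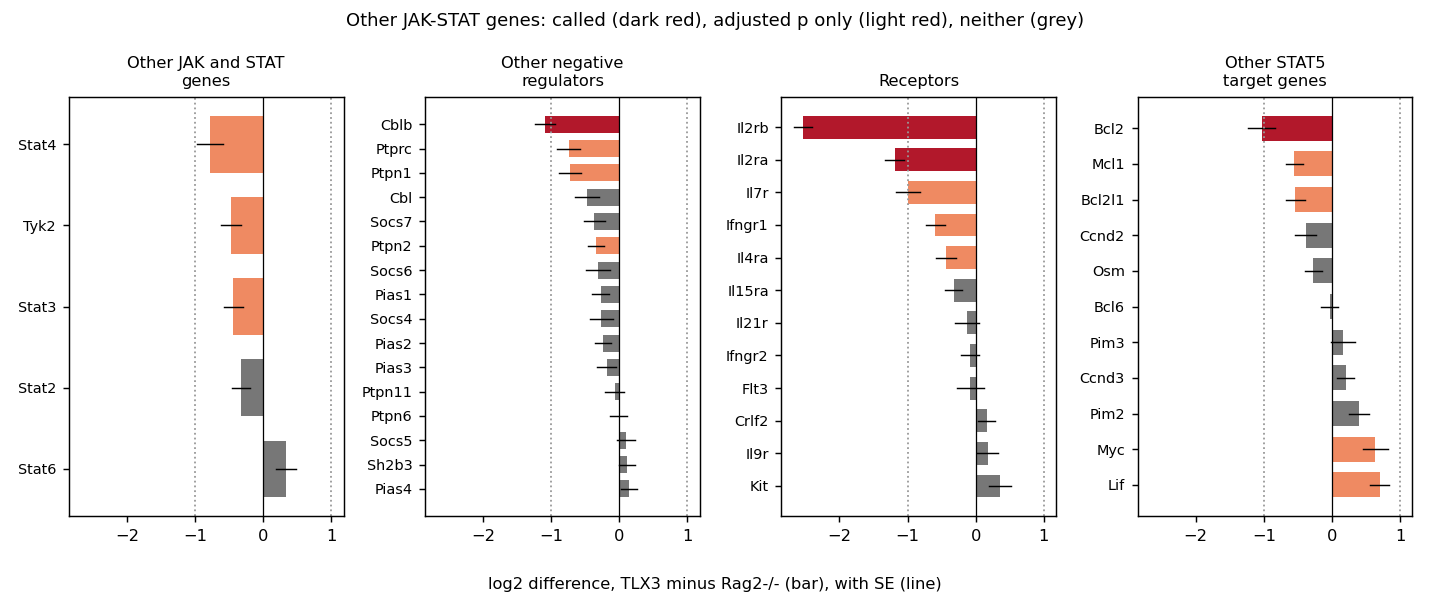
Log2 differences (horizontal axis, TLX3 minus Rag2-/-; bars) with SE (lines) of the 44 other genes listed around the JAK-STAT pathway, in 4 lists, coloured by call. Il2rb, Il2ra, Cblb and Bcl2 are the 4 that fell, and Lif and Myc are the 2 that were higher at the adjusted p.

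Profiles most like those of the called genes were sought among 10755 other genes above the median level, by the root-mean-square difference of centred log2 values over the 6 arrays. For Cish these were Mertk (0.06), a receptor kinase known from phagocytes, Gnb4 (0.11) and Mctp2 (0.11), with log2 differences of -1.52, -1.50 and -1.38. For Jak2 they were Golgb1 (0.03), Arrb1 (0.04) and Cln3 (0.04), with differences of -1.04, -0.99 and -1.03. The 6 arrays form 2 groups, so such likeness mostly restates the size of the group difference.

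**Figure D5:**
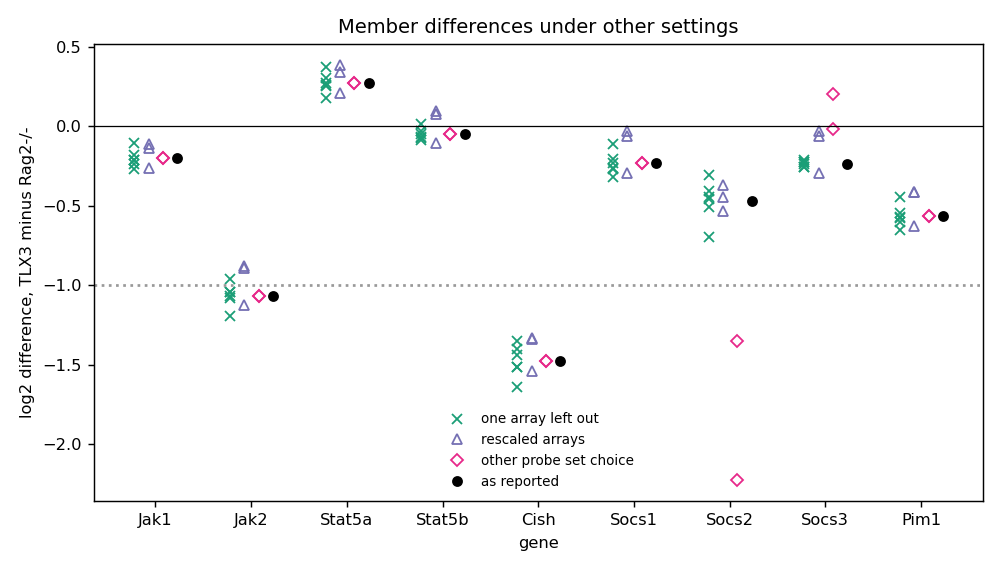
Log2 differences (vertical axis, TLX3 minus Rag2-/-) of the 9 genes as reported and with 1 array left out, with rescaled arrays or with another choice of probe set. Cish keeps under -1 throughout, Jak2 lies on both sides of -1, Stat5b and Socs3 lie on both sides of 0, and Socs2 spans -0.31 to -2.23.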

How the data were processed

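Total RNA from 3 Rag2-/- and 3 TLX3 samples was hybridised with biotin label to 1-colour arrays, grouped by the sample labels. The deposited log2 values are RMA output; per the submitters' processing notes, affy and R 2.9.0 made them. RMA corrects background, equalises probe distributions by quantile and summarises probes. The genome build was not given in these sources. Of 34760 probe sets, 6568 numbered before the genome-ordered ones were left out and 28192 tested, of which 21640 have a single symbol. The number of arrays limits the precision.

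Differences were tested with limma 3.58.1 (lmFit, eBayes, two-sided, no covariate) in R 4.3.3, with Benjamini-Hochberg adjustment over all 28192. The fit was tested on simulated data with equal spread in both groups. The real groups differ in spread, which that test did not cover. Alternatives were other scalings, dim-probe filters, a trended robust variance, array weights, the replicate block, mean probe sets, no minimum difference, limma treat, each array left out and, added after seeing the data, the second Socs2 and Socs3 probe sets. Members, lists and tests were chosen with earlier results of these data known. All members, called pathway genes and the 3 nearest profiles of each called member are named; other pathway genes were chosen after their values were seen. Plots used matplotlib 3.10.9.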

Additional observations from a re-analysis of the deposited data

How the results depend on the processing

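The 2 members called lower (Cish and Jak2) were 1 (Cish) after cyclic loess and renewed quantile normalization, and 0 with limma treat, where 1 of 9 passed at an unadjusted p under 0.05. With 1 array left out the count was 1 to 2, the 1 without TLX3 replicate 1. The members' median log2 difference moved from -0.23 to -0.14 and -0.11 after renewed quantile normalization and cyclic loess (-0.31 to -0.23 with 1 array left out), while the median of all genes moved from 0.11 to 0.04 and 0.00. The 4 pathway genes called lower were 2 after cyclic loess and with array weights, 15 at the adjusted p alone, 1 with limma treat and 2 to 5 with 1 array left out. The 0 called higher became 2 at the adjusted p alone. Over all genes, 1010 lower and 288 higher became 3858 and 4595 at the adjusted p alone and 122 and 7 with limma treat. Without probe sets under the median level 10756 of the 19937 genes remained, of which 820 were lower and 147 higher. With 1 array left out the counts were 820 to 1157 lower and 216 to 431 higher. The cause was not tested where the number of arrays or genes did not change. No member changed direction among called values. Same-numbered arrays did not deviate together (correlations of -0.11, 0.06 and -0.00), and the replicate block left 2 members called lower and 0 higher. Stat5a and Socs2 passed the adjusted p under some settings (Socs2 also at equal array medians, -0.53, and with array weights, -0.64). Signal near the array medians limits the Socs2 values.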
